A study of Mus musculus with 15 samples.

Results

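Accessible chromatin at 4 genes of islet hormones, secretory granules and ghrelin processing was followed over genotype and surgery in mouse pancreatic islets. The genes were the insulin gene Ins1, the somatostatin gene Sst, the ghrelin acyltransferase gene Mboat4 and the zinc transporter gene Slc30a8. Every ATAC-seq peak that the authors annotated to them was taken, which gave 7 regions out of 13858, at 4 genes of 10268, once peaks of all 4 deposited tables that shared at least 1 bp were joined. These were a promoter peak of Ins1, a distal peak of Sst, a peak in exon 3 of Mboat4, and an intron 2 peak and 3 distal peaks of Slc30a8. The genes had been selected on their accessibility levels in the groups and their changes in these same comparisons, so those values are given as a description and no test was run on them.

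All 15 mice were 3-month-old males that carried floxed Arid1a (Arid1aFl/Fl) and MIP-rtTA, a transgene that makes the doxycycline-dependent activator rtTA from an insulin promoter. The βKO mice carried TRE-Cre in addition, so that doxycycline drives Cre where rtTA is made. Controls had no TRE-Cre in their labels. Mice drank doxycycline at 1 g/L for 2 weeks, and 1 week after its withdrawal the treated mice had partial pancreatectomy (PPx), in which a portion of the pancreas is taken out. The groups after PPx held 4 βKO and 4 control mice, whose islets were taken 6 days after surgery. The groups before PPx held 3 βKO and 4 control mice without surgery. No sham surgery is described, so surgery and elapsed time cannot be told apart. Accessibility was read by ATAC-seq, which sequences the DNA that the transposase Tn5 can reach, on 40000 islet cells per library. Cell types were not separated, so a change in the share of a cell type and a change in accessibility per cell cannot be told apart.

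Islets hold several endocrine cell types that are known by the hormone they store. β cells store insulin in dense granules with zinc, which ZnT8, the product of Slc30a8, pumps into the granule. The δ cell product somatostatin restrains the release of both insulin and glucagon. Ghrelin, made by rare ε cells in the islet and mainly by the stomach, becomes active at its receptor only after the Mboat4 product GOAT attaches a fatty acid to it. Arid1a encodes a subunit of the SWI/SNF (BAF) complex, which moves nucleosomes and thereby alters accessibility.

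The Ins1 peak is the only one of the 7 that lies over a promoter, and its promoter sequence is shown because the change described below fell on it. In the RefSeq promoter table (GRCm38.p6, the build of the files), 2 of the 4 genes had an entry, Ins1 and Sst. The Ins1 window runs from 250 bases before the transcription start to 50 bases after it, on the plus strand at chr19:52264047-52264346, and it lay within the Ins1 peak in all 4 tables. Capitals mark matches to TAAT, the core bound by homeodomain factors such as Pdx1 and Nkx6-1, and to CANNTG, the E box bound by factors such as NeuroD1, with both strands searched and TAAT on the minus strand reading ATTA.

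Ins1 promoter: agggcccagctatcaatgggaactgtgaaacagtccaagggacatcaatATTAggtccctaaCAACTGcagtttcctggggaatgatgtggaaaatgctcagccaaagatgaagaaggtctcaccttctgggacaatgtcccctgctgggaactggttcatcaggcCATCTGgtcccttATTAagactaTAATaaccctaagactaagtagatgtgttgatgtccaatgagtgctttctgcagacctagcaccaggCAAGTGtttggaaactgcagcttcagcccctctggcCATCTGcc

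The window held 3 TAAT matches and 4 E boxes, none overlapping another. The E box whose first base lies at -84 and the TAAT matches at -71 and -61 were grouped within a short stretch upstream of the RefSeq start. Positions count from that annotated start, and whether transcription in islets begins there was not tested. Such matches are common, since TAAT occurred in 58.0% and CANNTG in 72.3% of 32851 promoter windows of the same length. The cAMP response element TGACGTCA was not in the window, and it occurred in 1.79% of all windows. Its shorter form TGACG was also missing and occurred in 20.8%. The TATA box letters TATAAA were not in the window and occurred in 13.6%, and the forkhead letters TGTTTAC were not in it and occurred in 3.65%. Bases outside the window were not searched, so the gene may hold these letters beyond its edges. The Ins1 window contained 0 CpG dinucleotides, against a median of 7 over all windows, and 5.43% of windows contained none.

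Each deposited table gives 1 log2 concentration, a normalised read level, for each group of a comparison and no value per mouse. Errors below are therefore standard errors implied by the authors' p-values. The deposited FDR is 1 for 7825 of 7826 peaks in the genotype table before PPx and for 4534 of 13111 after PPx, also at peaks with a small p. All peaks were 601 bp wide, so levels can be set side by side between peaks on this scale. The median peak of a table changed by 0.61 in βKO against control islets after PPx, by 0.00 in the same comparison before PPx, by 0.83 after against before PPx in βKO islets and by 0.16 after against before PPx in control islets, all on the log2 scale. Changes at single peaks are thus given as deposited and also relative to the median of their own table. The same group could be on another scale in another table. Islets of βKO mice before PPx read a median of 0.23 higher in the genotype table than in the table of times, and control islets before PPx 0.18 higher, whereas the groups after PPx differed by 0.00 and -0.05. The comparisons of times reuse the libraries of the genotype comparisons, while the genotype comparisons after and before PPx share no library. A peak in exon 9 of Arid1a read 4.04 in βKO and 0.40 in control islets after PPx, and 5.49 in βKO and 1.21 in control islets before PPx, in the authors' deposited table. It was called in 3 of 4 βKO libraries after and 3 of 3 before PPx, and in 0 control libraries at either time. Across surgery in βKO islets it read 4.04 after and 5.26 before PPx (FDR 0.0584), per the authors' deposited values. Which exons the floxed allele removes is not given in the sources used here. The peak thus separates the group levels by genotype without checking the deletion.

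The Ins1 promoter stood above control islets in βKO islets at both times. After PPx the peak (chromosome 19, 52263934 to 52264534) read 5.62 in βKO and 4.13 in control islets in the authors' deposited table. Before PPx (52263880 to 52264480) it read 5.08 in βKO and 4.12 in control islets in the authors' deposited table. Within each table βKO islets were above control islets. In the authors' deposited table the peak was higher in βKO islets after PPx by 1.49 ± 0.35 (log2, implied SE), a 2.81-fold difference with FDR 0.0154. Before PPx the difference in the authors' deposited table was 0.95 ± 0.44, with p = 0.0307 and FDR 1. Relative to the median of each table the excess was 0.88 after and 0.95 before PPx, values that differ by less than either implied SE. After PPx 120 of 13111 peaks changed as much or more. Entry takes a call in at least 2 libraries, and before PPx the peak was called in only 1 control library. Its entry before PPx thus needed βKO libraries, which favours a high βKO level, so its rank before PPx is not given.

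Peak calls at Ins1 followed the levels. The promoter peak had been called in 4 of 4 βKO and 2 of 4 control libraries after PPx, and in 3 of 3 βKO and 1 of 4 control libraries before PPx, per the authors' deposited table. Across surgery, the level at Ins1 moved with its table in both genotypes. In βKO islets it read 5.64 after and 4.81 before PPx in the authors' deposited table, a difference of 0.83 ± 0.39 with FDR 0.092, which is 0.00 relative to the median. In control islets it read 4.17 after and 3.90 before PPx in the authors' deposited table, 0.11 above the median change. The peak stands alone, with no other listed peak within 250 kb in any of the tables and Xpnpep1, the next protein-coding gene, 667 kb away. All mice carry an insulin promoter in MIP-rtTA, and whether reads from the transgene reached the Ins1 peak was not tested.

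**Figure D1:**
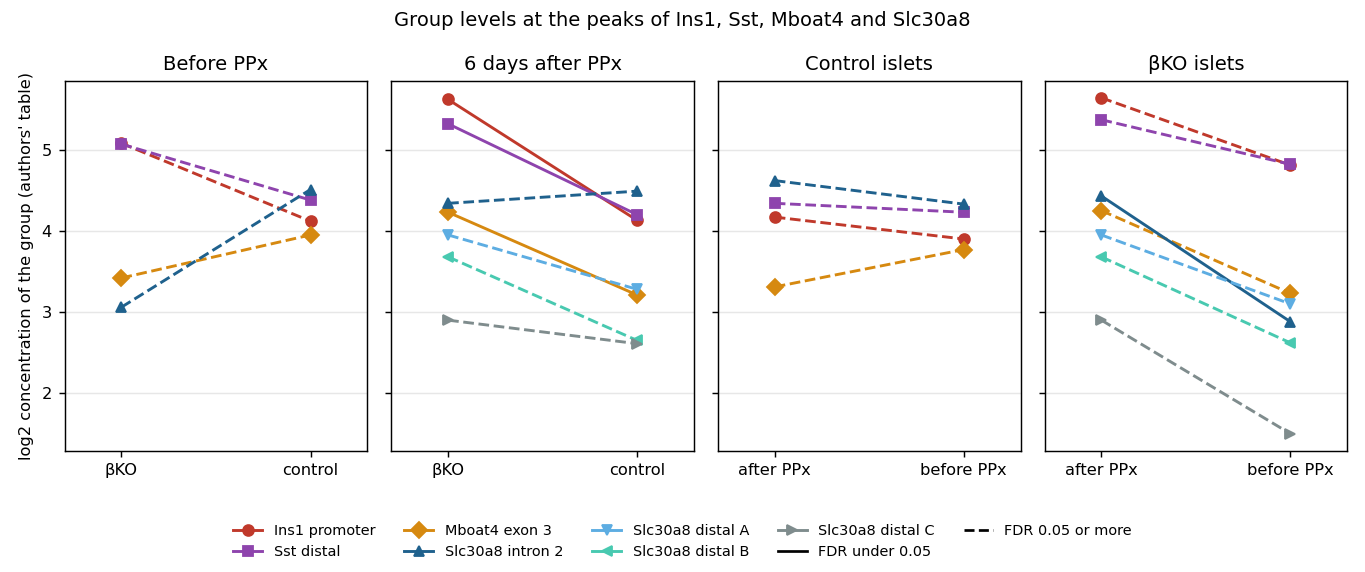
Log2 concentration of each group (y axis) at the 7 peaks, 1 panel for each deposited comparison, with lines joining the 2 groups of a comparison; solid lines mark peaks with an FDR under 0.05. After PPx, Ins1, Sst and Mboat4 are higher in βKO islets while the Slc30a8 intron 2 peak reads 4.34 in βKO and 4.49 in control islets.

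The peak annotated to Sst also read higher in βKO than in control islets within both genotype tables, with smaller differences than at Ins1. It lies 46.6 kb from the gene body, beyond its 3′ end, and its centre falls within the predicted gene Gm31430. No listed peak overlapped the RefSeq promoter window of Sst itself. After PPx the distal peak (chromosome 16, 23842625 to 23843225) read 5.32 in βKO and 4.20 in control islets in the authors' deposited table. Before PPx (23842514 to 23843114) it read 5.07 in βKO and 4.38 in control islets in the authors' deposited table. In the authors' deposited table the difference was 1.12 ± 0.34 after PPx, with FDR 0.0294, and 0.68 ± 0.37 before PPx, with p = 0.0628 and FDR 1. Relative to the medians these are 0.51 after and 0.68 before PPx.

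Across surgery the Sst peak stood under the median change of βKO islets. There it read 5.37 after and 4.82 before PPx in the authors' deposited table, a difference of 0.55 ± 0.39 with FDR 0.218, which is -0.28 relative to the median. In control islets it read 4.34 after and 4.23 before PPx in the authors' deposited table. It was called in 4 of 4 βKO and 3 of 4 control libraries after PPx, and in 3 of 3 βKO and 2 of 4 control libraries before PPx, per the authors' deposited table. The only other listed peaks within 250 kb belong to Bcl6, a transcriptional repressor gene on the far side of Sst. In the authors' deposited table the Bcl6 promoter, 146 kb from the Sst peak, read 4.67 in βKO and 3.53 in control islets after PPx (FDR 0.0427), and 4.37 in βKO and 3.54 in control islets before PPx. Relative to the medians the Bcl6 promoter stood at 0.54 after and 0.83 before PPx.

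At Mboat4 the genotypes stood in opposite order after and before PPx. The exon 3 peak lies in the last exon of the gene. After PPx (chromosome 8, 34123790 to 34124390) it read 4.23 in βKO and 3.21 in control islets in the authors' deposited table, a difference of 1.02 ± 0.38 with FDR 0.0491. Before PPx (34123909 to 34124509) it read 3.42 in βKO and 3.95 in control islets in the authors' deposited table, a difference of -0.53 ± 0.48 with p = 0.273. Relative to the medians the peak stood at 0.41 after and -0.53 before PPx. With the Benjamini-Hochberg adjustment taken over all listed peaks, its value after PPx was 0.0687.

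The levels at Mboat4 moved in opposite directions in the genotypes across surgery, without passing in either. In βKO islets the peak read 4.25 after and 3.23 before PPx in the authors' deposited table, a difference of 1.02 ± 0.47 with FDR 0.088, or 0.19 above the median. In control islets it read 3.31 after and 3.77 before PPx in the authors' deposited table, a difference of -0.47 ± 0.39 with FDR 0.999. Relative to the median of control islets that is -0.63. It was called in 4 of 4 βKO and 0 of 4 control libraries after PPx, and in 2 of 3 βKO and 2 of 4 control libraries before PPx, per the authors' deposited table. A peak enters a comparison when called in at least 2 libraries. Mboat4 thus entered the genotype comparison after PPx through βKO libraries alone. It entered that of control islets across surgery through the libraries before PPx alone. Such entry favours the directions seen, so they are given as description only. The promoter of Dctn6, a dynactin subunit gene, lies 15.5 kb away. In the authors' deposited table it read 4.99 in βKO and 3.85 in control islets after PPx (FDR 0.0273), and 3.65 in βKO and 3.68 in control islets before PPx. Relative to the medians the Dctn6 promoter stood at 0.53 after and -0.03 before PPx. Across surgery in control islets it stood at 0.21, where the Mboat4 peak stood at -0.63. The promoter of Saraf, 30.6 kb to the other side, also passed after PPx in the authors' deposited table, at 5.03 in βKO and 4.10 in control islets (FDR 0.0436).

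The Slc30a8 intron 2 peak was lower in βKO islets before PPx than any other member, relative to control islets, without passing the FDR. After PPx the peak (chromosome 15, 52315893 to 52316493) read 4.34 in βKO and 4.49 in control islets, with FDR 0.74 in the authors' deposited table. Before PPx (52315984 to 52316584) it read 3.06 in βKO and 4.51 in control islets in the authors' deposited table. The difference before PPx was -1.45 ± 0.44, with p = 0.0011 and FDR 1 in the authors' deposited table. Entry takes a call in at least 2 libraries, and before PPx the peak entered through control libraries alone. Such entry favours a lower βKO level, so its rank before PPx is not given. After PPx the levels differed by less than the implied SE of 0.35, but relative to the median of its table the peak stood at -0.76, where 6.32% of peaks were as low. It had been called in 2 of 4 βKO and 4 of 4 control libraries after PPx, and in 0 of 3 βKO and 4 of 4 control libraries before PPx, per the authors' deposited table.

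Across surgery the Slc30a8 intron 2 peak passed at the authors' FDR in βKO islets. There the peak (52315724 to 52316324) rose to 4.43 after PPx, against 2.88 before PPx, in the authors' deposited table. That is a change of 1.56 ± 0.54 with FDR 0.0484 in the authors' deposited table, and 0.73 above the median. With the Benjamini-Hochberg adjustment over all listed peaks its value was 0.0571, which did not pass. The peak was called in 2 of 4 βKO libraries after and 0 of 3 before PPx. It thus entered this comparison through the libraries after PPx alone, and such entry favours a rise. In control islets it read 4.62 after and 4.33 before PPx in the authors' deposited table, 0.13 above the median. The windows of this peak moved by up to 260 bp between tables and shared 341 bp, the largest shift among the 7 regions, so its levels in different tables cover partly different bases.

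The 3 distal peaks of Slc30a8, A to C in order of coordinate, were listed only in the tables that hold βKO islets after PPx. A peak enters a table when it was called in at least 2 libraries, and after PPx these 3 were called in 3, 2 and 2 of 4 βKO libraries and in 0 of 4 control libraries, per the authors' deposited table. The first (52217212 to 52217812) lies 78.0 kb and the next (52278252 to 52278852) 17.0 kb from the gene on the side of lower coordinates, and the last (52369838 to 52370438) lies 34.3 kb beyond its other end. After PPx the first read 3.95 in βKO and 3.28 in control islets, the next 3.68 in βKO and 2.65 in control islets, and the last 2.90 in βKO and 2.61 in control islets, in the authors' deposited table. Their changes of 0.66 ± 0.42, 1.03 ± 0.51 and 0.29 ± 0.54 did not pass, and they stood at 0.05, 0.42 and -0.32 relative to the median. In βKO islets after against before PPx the changes were 0.85 ± 0.52, 1.06 ± 0.61 and 1.40 ± 0.77. The lowest FDR was 0.145 in the authors' deposited table, and relative to the median the changes stood at 0.02, 0.23 and 0.57. Before PPx these peaks were called in 1, 0 and 0 of 3 βKO libraries. Their entry thus needed libraries after PPx, which favours a rise. The last peak was weak, at the 5.55th percentile of concentration in the genotype table after PPx. Other peaks within 250 kb of the intron 2 peak, which belong to Aard and Rpl15-ps6 besides Slc30a8, stood between -0.53 and 0.42 relative to the median in βKO against control islets after PPx, and the only one listed before PPx stood at -0.21.

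**Figure D2:**
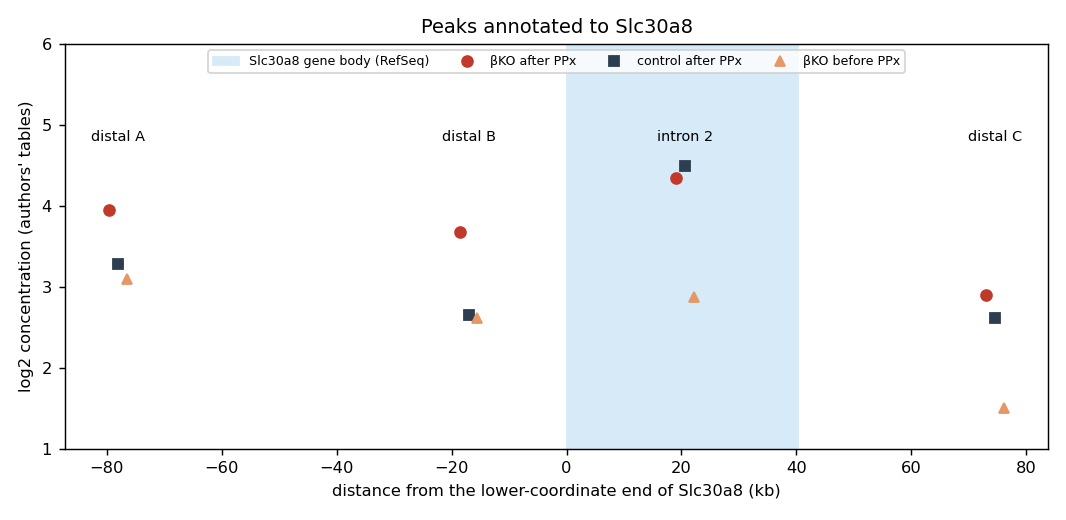
Log2 concentration (y axis) at the 4 peaks annotated to Slc30a8 against distance from the lower-coordinate end of the gene in kb (x axis, markers shifted by up to 1.5 kb to be seen apart), for βKO and control islets after PPx from their genotype table and βKO islets before PPx from the table of times. The intron 2 peak is the only one at which βKO islets after PPx, at 4.34, lie below control islets, at 4.49.

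Of the listed members, 3 of 7 were called after PPx between the genotypes, at an FDR under 0.05, where 9.97% of all peaks were called. These were Ins1, Sst and Mboat4, all higher in βKO islets. In βKO islets across surgery 1 of 7 was called, the Slc30a8 intron 2 peak, where 7.44% of all peaks were. Before PPx 0 of 4 were called between the genotypes in the authors' deposited table, against 0.0128% of all peaks, and 2 of the 4 had an unadjusted p under 0.05, as did 246 of 7826 peaks. In control islets across surgery 0 of 4 were called in the authors' deposited table, where 0.0% of all peaks were, 0 of 4 had an unadjusted p under 0.05 and 204 of 8070 peaks did. Since the genes had been chosen with these calls in view, nothing is read from the shares. The median change of the members after PPx, 1.02 between the genotypes or 0.41 above that of all peaks, is likewise not read. Mboat4 and the 3 distal Slc30a8 peaks entered there through βKO libraries alone, which favours high values in βKO islets.

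**Figure D3:**
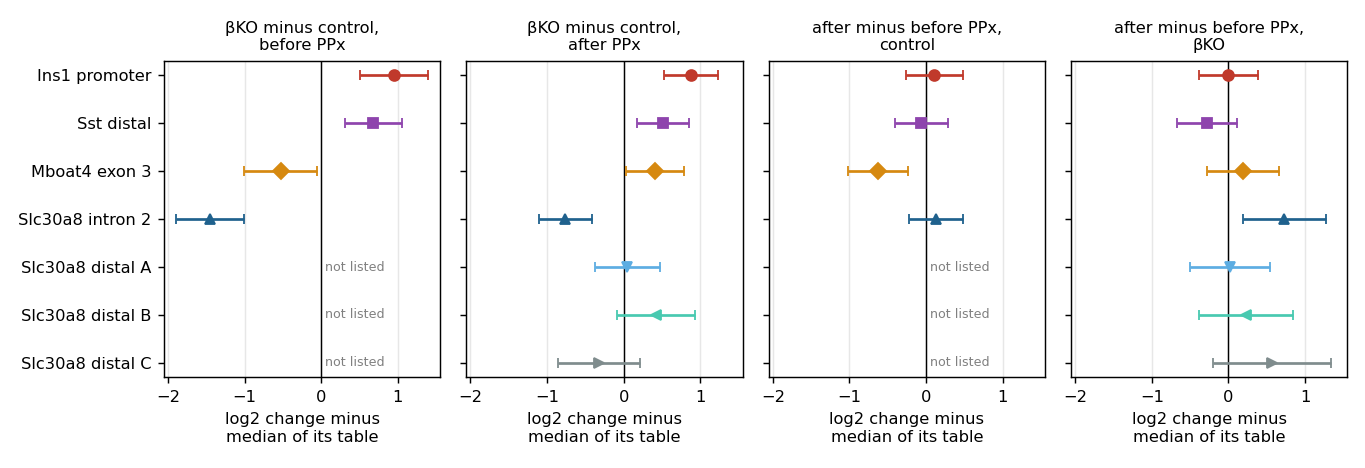
Log2 change minus the median of all peaks in its table (x axis) for each member peak (y axis) in the 4 comparisons, with bars of 1 implied SE; peaks that a table does not hold are marked as not listed. Between the genotypes, Ins1 stands at 0.88 after and 0.95 before PPx, and Slc30a8 intron 2 at -0.76 after and -1.45 before PPx.

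The 4 peaks listed in every table differed in how their genotype difference compared between the times. Relative to the medians, the difference after PPx minus that before PPx was -0.07 ± 0.56 for Ins1 and -0.17 ± 0.50 for Sst. It was 0.94 ± 0.61 for Mboat4 and 0.69 ± 0.56 for the Slc30a8 intron 2 peak. Among 7504 peaks matched between the genotype tables, 2.83% had a difference as high as that of Mboat4 and 7.46% as high as that of Slc30a8, while Ins1 and Sst lay among the bulk. Mboat4 entered after PPx through βKO libraries alone, and Slc30a8 intron 2 entered before PPx through control libraries alone. Such entry favours a high difference at both, so nothing is read from their ranks. All 4 differences lay within 2 implied SE of 0, and none was tested. Taken from the comparisons of times instead, as the relative change in βKO minus that in control islets, the values were -0.11, -0.22, 0.82 and 0.60 in the same order of genes.

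The genes were chosen on these changes, so the following counts only describe where their peaks lie. Before PPx, Slc30a8 intron 2 entered through control libraries alone, which favours a low βKO level. The entry of Ins1 before PPx needed βKO libraries, which favours a high βKO level. Nothing is therefore read from either count. At the upper end, 7 of 7504 matched peaks had relative genotype changes at least as large as those of the Ins1 promoter at both times, Ins1 included. The others with a named gene were at Arid1a, Mospd1 and Ppm1l, and 3 belonged to predicted genes. At the lower end, 8 peaks, Slc30a8 intron 2 included, were at least as low at both times, among them peaks of Cntnap5b, Fam107a, Ids and Kcnh7. These genes were named after their values were seen.

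**Figure D4:**
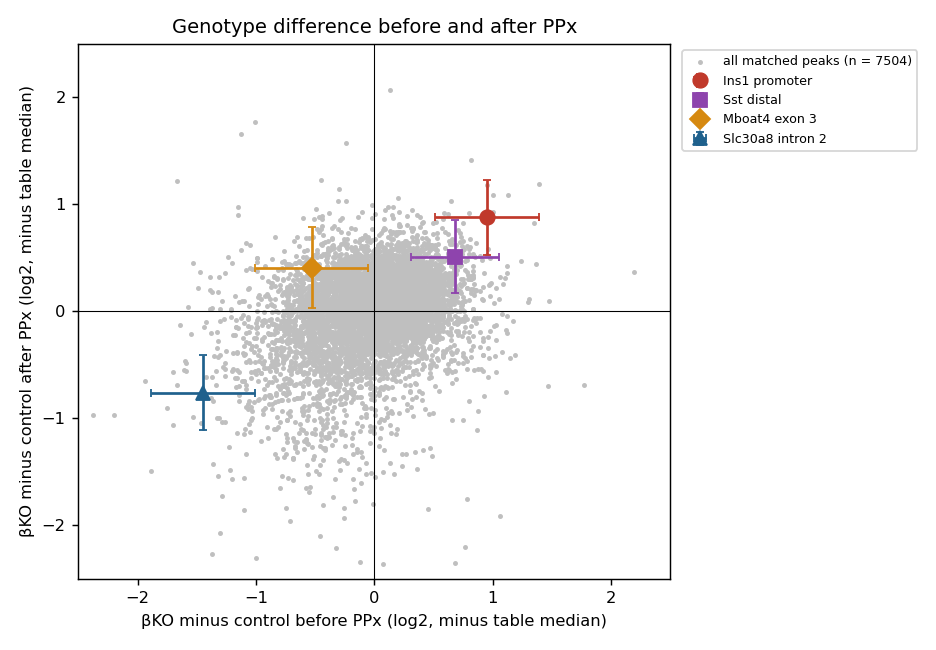
Change in βKO against control islets before PPx (x axis) and after PPx (y axis), each in log2 minus the median of its table, for 7504 matched peaks in grey and the 4 members listed at both times, with bars of 1 implied SE; 6 peaks lie beyond the plotted range of 2.5. Ins1 and Sst lie in the upper right, Slc30a8 intron 2 in the lower left and Mboat4 in the upper left.

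A list of 31 other genes of hormone storage and granule processing, without the 4 members, had peaks at 17 genes after PPx. Of these, 2 genes rose in βKO against control islets and 0 fell, each at 1 of the list's 34 peaks, where 9.97% of all peaks were called. The median of the 34 peaks was -0.04 relative to all peaks, and 0 genes passed with the Benjamini-Hochberg adjustment over all listed peaks. The promoter of Scg5, which encodes the chaperone 7B2 of the convertase PC2, read 4.97 in βKO and 3.94 in control islets (FDR 0.0371), in the authors' deposited table. The promoter of Scg3, a granin that helps sort hormones into granules, read 5.46 in βKO and 4.52 in control islets (FDR 0.0459), in the authors' deposited table. The other listed peaks of these genes stood below the median, Scg5 intron 2 at -0.99, Scg3 intron 10 at -0.52 and Scg3 exon 7 at -0.28. The strongest peaks that did not pass were at the zinc transporter gene Slc39a10, which read 6.56 in βKO and 5.86 in control islets, and at intron 1 of Cpe, the carboxypeptidase that trims insulin, at 6.07 in βKO and 5.36 in control islets, in the authors' deposited table. A distal peak of Pcsk1, the proinsulin convertase gene, read 5.40 in βKO and 4.99 in control islets (FDR 0.261), in the authors' deposited table. The promoter of the glucagon gene Gcg, named after its values were seen, read 3.70 in βKO and 3.80 in control islets in the authors' deposited table, which is -0.71 relative to the median.

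Before PPx the granule list had peaks at 13 genes, 0 of them called and 1 with an unadjusted p under 0.05 in the authors' deposited table, and the median of 25 peaks was -0.13 relative to all peaks. In control islets across surgery 0 of 13 genes with a peak were called and 1 had an unadjusted p under 0.05 in the authors' deposited table, with a median of 0.18. In βKO islets after against before PPx, 4 of 17 genes rose and 0 fell, each at 1 of 33 peaks, where 7.44% of all peaks were called. The median was 0.08 relative to all peaks, and 2 genes passed with the adjustment over all listed peaks. The 4 called at the authors' FDR included Scg5 (4.97 after, 3.57 before PPx) and Chgb, the chromogranin B gene (4.24 after, 2.78 before). The others were Cpe intron 1 (6.07 after, 4.98 before) and a distal peak of Pam, the enzyme that amidates peptides (4.83 after, 3.49 before), in the authors' deposited table. Scg5 and Pam, which had the lowest p of the list, were the 2 that also passed the adjustment over all listed peaks. A list of 19 exocytosis genes had 24 peaks at 12 genes after PPx, of which 1 gene rose between the genotypes at 1 peak, where 9.97% of all peaks were called. It was the calcium sensor gene Syt1 (4.14 in βKO, 2.51 in control islets) at an intron peak in the authors' deposited table. That peak was called in 3 βKO and 0 control libraries, so it entered through βKO libraries alone, which favours a rise. The other listed Syt1 peaks stood between -0.66 and 0.16 relative to the median. In βKO islets across surgery 2 of 11 exocytosis genes rose, each at 1 of 21 peaks, against 7.44% of all peaks. These were the active zone gene Rims2, by 1.33, and the exocyst gene Exoc1, by 1.19, in the authors' deposited table. With the adjustment over all listed peaks, 1 gene passed. Each of these peaks was called in only 1 library before PPx, so entry needed libraries after PPx, which favours a rise. No peak of Ins2, Iapp, Ghrl, Ppy or Pyy was among those analysed here, so the Ins1 promoter could not be set beside that of the other insulin gene, nor Mboat4 beside its substrate.

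**Figure D5:**
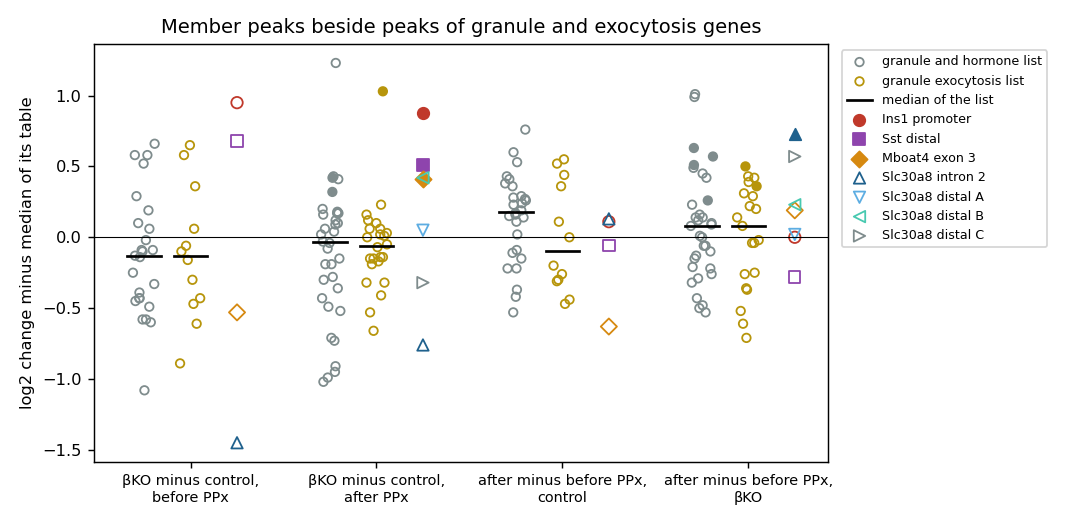
Log2 change minus the median of its table (y axis) for peaks of the granule and hormone list, the exocytosis list and the member genes in the 4 comparisons (x axis); filled symbols have an FDR under 0.05 and black bars are list medians. The lists centre near 0 in each comparison, while Ins1 lies at 0.88 and Slc30a8 intron 2 at -0.76 between the genotypes after PPx.

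Markers of the islet and other pancreatic cell types were sparse among the listed peaks. Of 10 β cell markers, which include Ins1 and Slc30a8, 6 had a peak in the genotype table after PPx and 4 before, with Ins2, Iapp, Pdx1 and Slc2a2 lacking one in both. Summed over peaks on the linear scale, β cell markers came to 228 in βKO and 138 in control islets after PPx, and to 72.2 in βKO and 73.0 in control islets before PPx. The sums cover different peaks at the 2 times and are compared only within a table, and they include the shift of all peaks, which was 1.53-fold between the genotypes after PPx. Relative to that shift the median β cell marker peak stood at 0.00 after PPx. Of the 5 δ cell markers only Sst had a peak, of the 2 ε cell markers only Mboat4, and the PP cell marker Ppy had none. The α cell markers summed to 58.5 in βKO and 46.4 in control islets after PPx (3 of 6 genes), and to 22.4 in βKO and 30.0 in control islets before PPx (2 of 6 genes). None of 6 acinar markers had a peak in any table. After PPx the duct markers summed to 19.0 in βKO and 15.8 in control islets (1 of 5 genes) and the stromal markers to 9.85 in βKO and 8.46 in control islets (1 of 4 genes). The endothelial markers summed to 61.0 in βKO and 59.0 in control islets after PPx (3 of 5 genes), and the leukocyte markers to 27.2 in βKO and 17.9 in control islets (2 of 5 genes). Relative to all peaks the medians after PPx were -0.21 for α cell, -0.34 for duct, -0.39 for stromal, -0.40 for endothelial and 0.06 for leukocyte markers. The leukocyte marker Csf1r, at a distal peak, rose in βKO islets across surgery, to 4.03 after PPx against 2.02 before PPx in the authors' deposited table. This peak was called in 2 βKO libraries after and 0 before PPx. It thus entered through the libraries after PPx alone, and such entry favours a rise. The other leukocyte marker with a peak, Ptprc, read 3.50 after and 3.27 before PPx in the authors' deposited table (FDR 0.697), which is -0.60 relative to the median. The part of cell composition in the values at the 4 genes was not tested.

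The peaks most like each member were sought by the root mean square difference of the relative changes over the 4 comparisons, among 6822 regions present in all of them. For Ins1 the nearest were the promoters of Fam171a1, Tmco1 and Slc35a1, at 0.20, 0.20 and 0.21, where the median region was 0.68 away. For Sst they were a distal peak of Tram2 and the promoters of Rock2 and Klhl15, at 0.05, 0.07 and 0.08, where the median region was 0.50 away. For Mboat4 they were the promoters of Etfbkmt, Kdm8 and Pi4k2a, at 0.04, 0.06 and 0.07, where the median region was 0.53 away. For the Slc30a8 intron 2 peak they were at Pakap, Igkc and Agbl1, at 0.16, 0.16 and 0.17, where the median region was 0.94 away. Over the 2 comparisons that list it, the distal Slc30a8 peak 34.3 kb from the gene was nearest to the promoters of H2-K1, Prickle4 and Mpp1, at 0.02 or less, among 12276 regions.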

How the data were processed

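Per the submitters' processing notes, cutadapt, BWA, MACS, DiffBind and ChIPseeker were used on mm10 (GRCm38). The sources used here do not give their versions, settings or any shift of reads for Tn5. The authors deposited 4 tables, 1 per comparison. For each 601 bp peak the deposited columns hold a log2 concentration for either group, a log2 fold, its p-value, its FDR and in how many libraries it was called, per the file headers. The normalization is the authors' own. The fold runs control minus βKO or before minus after in the files and was turned here. Repeated rows (between 1197 and 5281 per table) were counted once, and 1 empty row was dropped. Depth per library is unknown.

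The median change of all listed peaks was subtracted from each change. A standard error was implied from the deposited fold and p-value by the normal quantile. Where p was 0.5 or more or the change under 0.1, the median error of peaks of like concentration (20 bins) was used. These steps and the Benjamini-Hochberg adjustment were checked on simulated tables. A shared stretch of 1 bp or more joined peaks between tables. Gene lists are described by counts and medians. Named beyond the members were list genes past the FDR, up to 6 of the strongest granule list peaks per table and the 3 most similar genes per peak, which are not reported here for distal Slc30a8 peaks A and B. Gcg, Csf1r, Ptprc and neighbours within 250 kb were named after their values were seen. The members and lists were chosen with earlier results of these data known. The analysis used Python 3.11.15, pandas 2.3.3, numpy 2.4.6 and scipy 1.17.1. Sequences are from RefSeq (GRCm38.p6).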

Additional observations from a re-analysis of the deposited data

How the results depend on the processing

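Subtracting the median of the annotation class or of peaks of like concentration moved each of 22 member changes by less than its implied SE. Without centring, 14 moved further. Between the genotypes after PPx they were then 1.49 (Ins1), 1.12 (Sst), 1.02 (Mboat4), -0.15 (Slc30a8 intron 2) and 0.66, 1.03 and 0.29 (distal Slc30a8 peaks). In βKO islets after against before PPx they were 0.83, 0.55, 1.02, 1.56, 0.85, 1.06 and 1.40 in the same order of peaks. The sign depended on the centring for Ins1 in βKO islets across surgery (-0.03 to 0.83), Sst across surgery in control (-0.09 to 0.10) and βKO islets (-0.31 to 0.55) and the last distal Slc30a8 peak between the genotypes after PPx (-0.32 to 0.29), none of them called. At an FDR under 0.01, 0 members remained called, and 3 peaks in all were called between the genotypes after PPx and 5 in βKO islets across surgery. Adjusting the deposited p-values over all listed peaks gave 551 and 573 called peaks in these comparisons. Members called were then 2 (Ins1 and Sst) between the genotypes after PPx and 0 in βKO islets across surgery, and granule list genes called were 0 and 2. Requiring 300 shared bp changed no matched member. No library could be left out, since the tables hold no value per mouse. No paired analysis was possible because the groups share no replicate number and the tables hold only group values. Precision is limited by 3 or 4 mice per group, and the implied SE of the median peak was 0.38 to 0.49 in log2 over the tables.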
